A study of Rattus norvegicus with 12 samples.

Results

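The genes of neuropeptide precursors and of secretory granule proteins were followed in the forebrain of rats after exposure to a new environment. A list of 38 symbols was matched to probe sets that the platform annotation gives exactly 1 gene symbol, and 35 of the 38 had such a probe set, out of 14217 genes in all. Each gene is represented by the probe set with the highest mean intensity over the 12 arrays. Agrp, Edn3 and Pcsk1 were not analysed here. The exposed group was 6 male Long Evans rats, 6 weeks old and housed singly for several days, that spent 3 hours in an unfamiliar environment furnished with variously shaped and coloured objects. The control group was 6 male Long Evans rats of the same age and housing that stayed in a standard laboratory cage. Total RNA of the forebrain of each animal was hybridised to 1 Affymetrix array, and the stated purpose of the series is to find genes that rise with the exposure. Values are the deposited probe set intensities on a linear scale, and changes are log2 differences, exposed minus control, given ± the standard error from a limma fit over 31042 probe sets (n = 6 animals per group). "Passed" means a Benjamini-Hochberg adjusted p under 0.05 in that fit.

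Neuropeptides are cut from larger precursor proteins inside dense-core secretory granules. Prohormone convertases cut the precursor at pairs of basic residues, carboxypeptidase E trims the ends, and peptidylglycine alpha-amidating monooxygenase, the product of Pam, amidates many of the peptides. Granins such as secretogranin II and chromogranins A and B are the bulk cargo of these granules and help to form them, and the granules release their content when a neuron fires strongly. In the forebrain, precursors such as those of enkephalin and substance P are known from striatal projection neurons, those of vasoactive intestinal peptide and cholecystokinin from cortical neurons, and those of vasopressin, oxytocin, orexin and melanin-concentrating hormone from the hypothalamus.

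The immediate early gene Fos averaged 1979 ± 220 in exposed animals and 296 ± 72.3 in control animals (SD, n = 6 each), and the groups did not overlap. Median intensities of the arrays lay between 234.7 and 244.9 in exposed animals and between 236.9 and 240.4 in control animals. All 15 neuron markers were measured above the floor set for low intensities (53.9), among them Rbfox3 at 3389 ± 366 in exposed and 3242 ± 106 in control animals. Of the 15, 0 passed. At an unadjusted p under 0.05 in limma, 3 were higher (Nefm, Nefh and Nefl) and 1 was lower (Tubb3). Of 11 hypothalamus markers, the transcription factor genes Sim1, Otp and Rax and the gene Peg10 were at the floor on all 12 arrays, and 0 of the 11 passed. Exposed animals 3 and 5 correlated least with the other animals of their group (median r 0.995 for both), and control animal 4 had a mean log2 level of 8.59 over 9 olfactory bulb and neuroblast markers, against 7.72 to 7.82 in the other control animals and 7.76 to 7.86 in exposed animals. The genes that passed, Tac1 and Avp are given without these 3 animals as well, and Nmb and Trh without control animal 4. Labels do not say that the animals came from separate litters or processing days.

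Messages for 5 of the 35 genes rose after the exposure and 0 fell. The risers were Vgf and Scg2, which code for granule cargo proteins, Pnoc, the precursor of the opioid-related peptide nociceptin, Nts, the precursor of neurotensin, and Adcyap1, the precursor of the peptide PACAP. Their increases were small, between 1.11-fold and 1.30-fold. The 5 risers are 14.3% of the 35 genes, and over all 14217 genes 2.62% passed as higher and 0.844% as lower in limma (1.97% and 0.599% of the 31042 probe sets). Of the 31042 probe sets, 5224 were at the floor on all 12 arrays and could not pass, against 1 of the 35 genes. The shares over all genes include genes at the floor, and the 35 genes were chosen with earlier results known. An unadjusted p under 0.05 was reached by 7 of the 35 genes with a higher and by 1 with a lower value, 22.9% in all, against 15.9% of all genes (8.77% higher and 7.1% lower). In 4 of the 35 genes every exposed animal lay above every control animal, which was seen in 2.5% of all genes, and in 0 of the 35 every exposed animal lay below every control animal, against 0.879% of all genes. The median log2 change of the 35 genes was 0.00, as was that of all genes. In tissue RNA a change in the number of cells of a type and a change in RNA per cell cannot be told apart. The log2 difference between 3 prime and 5 prime probe sets of 2 array control transcripts, which tracks RNA quality, was 0.45 ± 0.0696 in exposed and 0.389 ± 0.0470 in control animals (SD, n = 6 each). Exposed animal 3 was highest at 0.586. The other exposed animals lay between 0.391 and 0.443, and control animals between 0.332 and 0.439. With this difference as a covariate 2 of the 35 genes passed, Scg2 and Pnoc. Without 1 animal at a time 3 genes passed in 9 fits and 4 in the fits without exposed animal 5, exposed animal 6 or control animal 1. Scg2, Pnoc and Nts passed in each of these 12 fits, and also without control animal 4 and exposed animals 3 and 5 together (adjusted p = 0.0126, 0.0494 and 0.0467 in limma), where Adcyap1 did not (adjusted p = 0.09).

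**Figure D1:**
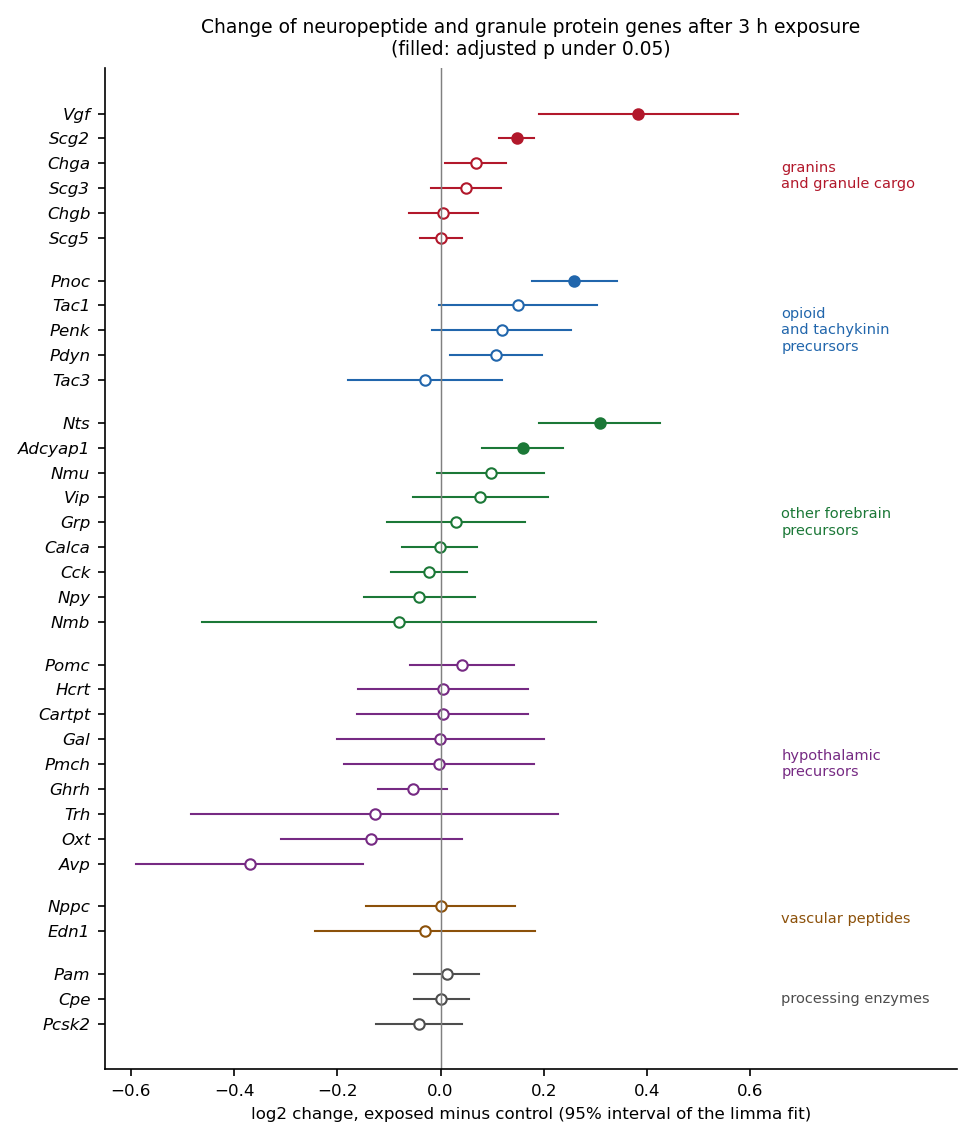
Log2 change (exposed minus control, x axis) of the 34 genes above the floor, with the 95% interval of the limma fit, grouped by role; filled points passed at adjusted p under 0.05. The 5 filled points, Vgf, Scg2, Pnoc, Nts and Adcyap1, all lie right of 0, and most other genes lie within 0.1 of 0.

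Of 6 granule cargo genes, 2 rose and 0 fell, with a median log2 change of 0.06. Scg2 codes for secretogranin II, the precursor of the peptide secretoneurin. Its intensity was 5521, 5322, 5342, 5246, 5339 and 5271 in exposed animals 1 to 6, against 4880, 4751, 4717, 4880, 4792 and 4927 in control animals 1 to 6. The groups did not overlap, and the spread was narrow in both. The log2 change of Scg2 was 0.15 ± 0.015 (1.11-fold, adjusted p = 0.000401 in limma), the smallest p of the 35 genes. The within-group SD of Scg2 on the log2 scale was 0.025, and 1.23% of the genes above the floor had a lower one. Vgf codes for a granin-like precursor known to be induced by neurotrophins and neuronal activity. Its intensity was 5660, 5291, 5423, 5000, 4732 and 3958 in exposed animals 1 to 6, against 4165, 3890, 4175, 3349, 3749 and 3648 in control animals 1 to 6. Exposed animals 1 to 5 lay above every control animal, and exposed animal 6 lay below 2 of the 6 control animals. The log2 change of Vgf was 0.38 ± 0.09 (1.30-fold, adjusted p = 0.0468), the largest increase of the 35 genes and the one nearest to the threshold.

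The call of Vgf depended on single animals and on covariates. Without exposed animal 6 the adjusted p of Vgf was 0.00635 in limma, and in the 11 other fits with 1 animal left out it lay between 0.0583 and 0.101, with log2 changes from 0.345 to 0.408. Vgf averaged 5458 in exposed animals numbered 1 to 3 and 4563 in those numbered 4 to 6, against 4077 and 3582 in the control animals of the same numbers. Within numbers 1 to 3 the log2 change was 0.42 (adjusted p = 0.0636), and within numbers 4 to 6 it was 0.34 (adjusted p = 0.422). What the numbers mean is not given in the labels. With the RNA quality covariate the log2 change of Vgf was 0.31 (adjusted p = 0.176), with the hypothalamus marker covariate it was 0.38 (adjusted p = 0.0621), and without control animal 4 and exposed animals 3 and 5 it was 0.33 (adjusted p = 0.209).

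The other 4 granule cargo genes did not pass. Chga, which codes for chromogranin A, measured 2350, 2403, 2440, 2439, 2463 and 2356 in exposed animals 1 to 6, against 2377, 2420, 2283, 2183, 2191 and 2343 in control animals 1 to 6. Exposed animals 3, 4 and 5 lay above every control animal, and the groups overlapped (log2 change 0.07 ± 0.03, unadjusted p = 0.0294, adjusted p = 0.29 in limma). For Scg3, a granin that binds chromogranin A, the log2 change was 0.05 with a 95% interval from -0.02 to 0.12. For Chgb, which codes for chromogranin B, the interval ran from -0.06 to 0.07. Scg5 codes for the chaperone of prohormone convertase 2, and its intensity of 11450 ± 251 in exposed and 11440 ± 200 in control animals (SD, n = 6 each) gave an interval from -0.04 to 0.04. The 6 granule cargo genes covered log2 changes from 0.00 for Scg5 to 0.38 for Vgf.

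**Figure D2:**
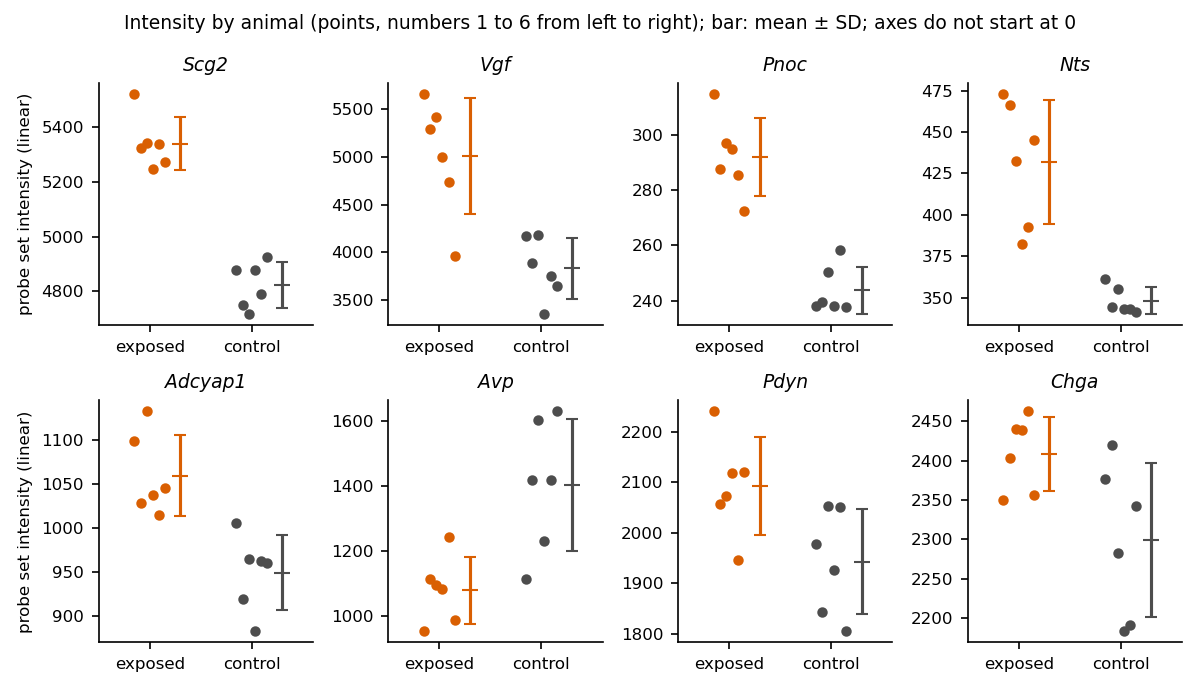
Probe set intensity (y axes, linear units, not starting at 0) of the 5 genes that passed and of the 3 genes with an unadjusted p under 0.05, by animal, exposed left of control, with mean ± SD (n = 6 each). For Scg2, Pnoc, Nts and Adcyap1 all 6 exposed animals lie above the control animals, for Vgf 5 of 6 do, and for Avp 5 of 6 lie below.

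Promoter sequences are shown for Scg2 and Vgf because both windows hold the full cyclic AMP response element, TGACGTCA, for Nts as a riser without it, and for Cartpt, whose window holds it and whose level gave no change that passed. The windows are from RefSeq on the rat build GRCr8 and run from 250 bases before to 50 bases after the annotated start, written along the gene's strand, with capitals for matches to TGACGTCA, to its shorter form TGACG (both strands, contained in the full element) or to the AP-1 element TGANTCA (both strands read alike). All 4 genes lie on the minus strand, Scg2 at chr9:88256817-88257116, Vgf at chr12:25276971-25277270, Nts at chr7:39460839-39461138 and Cartpt at chr2:32991186-32991485.
Scg2: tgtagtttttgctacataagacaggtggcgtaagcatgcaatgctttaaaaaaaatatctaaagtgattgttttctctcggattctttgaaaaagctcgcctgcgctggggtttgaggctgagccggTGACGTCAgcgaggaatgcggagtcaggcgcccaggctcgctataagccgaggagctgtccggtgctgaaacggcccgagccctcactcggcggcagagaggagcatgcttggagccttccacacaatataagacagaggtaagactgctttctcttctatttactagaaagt
Vgf: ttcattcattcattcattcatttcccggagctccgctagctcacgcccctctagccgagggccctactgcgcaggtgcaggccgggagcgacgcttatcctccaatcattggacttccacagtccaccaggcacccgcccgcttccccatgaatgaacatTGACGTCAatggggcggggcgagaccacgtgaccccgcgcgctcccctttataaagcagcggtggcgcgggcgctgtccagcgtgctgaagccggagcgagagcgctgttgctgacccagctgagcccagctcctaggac
Nts: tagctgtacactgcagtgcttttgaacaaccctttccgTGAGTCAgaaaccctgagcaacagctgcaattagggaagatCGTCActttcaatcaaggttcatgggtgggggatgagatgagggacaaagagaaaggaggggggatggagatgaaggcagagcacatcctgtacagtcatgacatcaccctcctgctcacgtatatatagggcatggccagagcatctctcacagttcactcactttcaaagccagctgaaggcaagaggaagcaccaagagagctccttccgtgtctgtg
Cartpt: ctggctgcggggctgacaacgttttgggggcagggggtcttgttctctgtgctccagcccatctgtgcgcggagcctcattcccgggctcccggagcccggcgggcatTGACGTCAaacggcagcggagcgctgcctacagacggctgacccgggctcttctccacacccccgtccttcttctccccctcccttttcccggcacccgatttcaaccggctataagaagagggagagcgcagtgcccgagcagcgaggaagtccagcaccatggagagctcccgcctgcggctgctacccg

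Windows were found for 28 of the 35 genes. The full element TGACGTCA was in 3 of the 28, starting at position -123 in Scg2, -90 in Vgf and -142 in Cartpt, and in 1.83% of all 33469 windows. The short form TGACG was in 17 of the 28 windows, among them those of Nts, Vip, Tac1, Avp and Cpe, and in 21.2% of all windows. TGANTCA was in 3 of the 28 windows, those of Avp, Nmu and Nts, and in 7.33% of all windows. Cartpt, the precursor of the CART peptide, measured 1027 ± 50.8 in exposed and 1029 ± 131 in control animals (SD, n = 6 each), with a log2 change of 0.00 and a 95% interval from -0.16 to 0.17. Control animal 4 was the highest at 1270. With 1 animal left out at a time the log2 change of Cartpt lay between -0.036 and 0.067. Over 29 alternative settings it lay between -0.052 and 0.1 and passed in 0 of them. Adcyap1 had a window with none of the 3 motifs. Pnoc, the remaining riser, is not among the genes with a match, and whether it had a window is not given here. A motif match describes the letters of the window and was not tested as a binding site.

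Among opioid and tachykinin precursors, 1 of 5 genes rose and 0 fell, with a median log2 change of 0.12. Pnoc measured 314.6, 287.6, 296.8, 294.7, 285.3 and 272.6 in exposed animals 1 to 6, against 238.3, 239.7, 250.4, 238.3, 258.4 and 237.9 in control animals 1 to 6. The groups did not overlap, and exposed animal 1 was highest. Pnoc changed by 0.26 ± 0.04 on the log2 scale (1.20-fold, adjusted p = 0.00358 in limma), and the change lay between 0.22 and 0.30 over 29 alternative settings, in 3 of which it did not pass (adjusted p up to 0.373). The receptor of nociceptin, Oprl1, had a log2 change of -0.02 (adjusted p = 1.0).

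The striatal precursors overlapped between the groups and did not pass. Penk, the precursor of the enkephalins, measured 6360, 6276, 5751, 5713, 4928 and 5449 in exposed animals 1 to 6, against 5514, 5057, 5589, 5317, 5329 and 4890 in control animals 1 to 6 (log2 change 0.12 ± 0.06, adjusted p = 0.471 in limma). Tac1, the precursor of substance P and neurokinin A, measured 1221, 1120, 970.5, 1134, 950.4 and 1150 in exposed animals, against 994.6, 872.8, 1037, 1040, 1012 and 933.3 in control animals (log2 change 0.15 ± 0.07, adjusted p = 0.394). Without control animal 4 and exposed animals 3 and 5 the log2 change of Tac1 was 0.26 (adjusted p = 0.0728), and with the RNA quality covariate it was 0.22 (adjusted p = 0.177), so it did not pass in either. Exposed animals 1, 2, 3 and 4 lay above every control animal for Penk, and exposed animals 1, 2, 4 and 6 for Tac1. Exposed animal 5 had the lowest value of its group for both. Pdyn, the precursor of the dynorphins, averaged 2092 ± 96.4 in exposed and 1943 ± 104 in control animals (SD, n = 6 each), with 5 of 6 exposed animals above every control animal (log2 change 0.11 ± 0.04, unadjusted p = 0.0223, adjusted p = 0.251). A dimmer Pdyn probe set had a log2 change of -0.06 and a 95% interval from -0.30 to 0.18. The summed intensity of 14 striatum markers ran from 19102 to 20600 in exposed and from 19505 to 20862 in control animals, 0 of them passed, none was at the floor, and a fit was also made with their mean log2 level as a covariate. In that fit Tac1 changed by 0.20 (adjusted p = 0.219) and Penk by 0.17 (adjusted p = 0.232) on the log2 scale, neither of which passed. Of the 5 risers, Adcyap1 did not pass in that fit (log2 change 0.17, adjusted p = 0.0667), and the other 4 did, with adjusted p-values of 0.0056 for Pnoc, 0.0251 for Vgf, 0.0222 for Nts and 0.00147 for Scg2. Tac3, the precursor of neurokinin B, had a log2 change of -0.03 with a 95% interval from -0.18 to 0.12.

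Of 9 other forebrain precursors, 2 rose and 0 fell. Nts measured 473.0, 466.5, 432.5, 382.2, 392.7 and 445.4 in exposed animals 1 to 6, against 361.0, 344.4, 355.3, 343.3, 343.2 and 341.2 in control animals 1 to 6. The exposed animals spread widely and the control animals lay close together, with no overlap. Nts changed by 0.31 ± 0.05 on the log2 scale (1.24-fold, adjusted p = 0.0107 in limma), and with the RNA quality covariate the change was 0.29 (adjusted p = 0.0526). The neurotensin receptor genes Ntsr1 and Ntsr2 had log2 changes of -0.01 and -0.02 (adjusted p = 1.0 for both).

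Adcyap1 measured 1099, 1029, 1133, 1038, 1015 and 1046 in exposed animals 1 to 6, against 1006, 919.3, 965.4, 882.9, 963.4 and 961.1 in control animals 1 to 6. The groups did not overlap, though the lowest exposed value, 1015 in animal 5, and the highest control value, 1006 in animal 1, were close. The log2 change of Adcyap1 was 0.16 ± 0.04 (1.12-fold, adjusted p = 0.0438 in limma). With 1 animal left out it passed in 2 of 12 fits, those without exposed animal 5 (0.0466) or control animal 1 (0.0327), and its adjusted p was between 0.0629 and 0.101 in the others. A dimmer Adcyap1 probe set measured 128 ± 12.3 in exposed and 102 ± 14.8 in control animals (SD, n = 6 each), a log2 change of 0.34 ± 0.10 that did not pass (adjusted p = 0.147), with 5 of 6 exposed animals above every control animal. Adcyap1r1, the gene of the PACAP-selective receptor, had a log2 change of 0.03 with a 95% interval from -0.08 to 0.14.

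The remaining 7 forebrain precursors did not pass, and for the abundant cortical peptides the intervals were narrow. Cck, the precursor of cholecystokinin, averaged 9223 ± 264 in exposed and 9371 ± 474 in control animals (SD, n = 6 each), with a 95% interval of the log2 change from -0.10 to 0.05. Npy, the precursor of neuropeptide Y, averaged 2678 ± 109 in exposed and 2761 ± 204 in control animals, with an interval from -0.15 to 0.07. Vip, the precursor of vasoactive intestinal peptide, had a log2 change of 0.08 (interval -0.05 to 0.21) and Grp, the precursor of gastrin-releasing peptide, one of 0.03 (interval -0.10 to 0.16). Nmu, the precursor of neuromedin U, had a low intensity of 72.6 ± 3.46 in exposed and 68.0 ± 4.55 in control animals (log2 change 0.10, adjusted p = 0.423 in limma). Calca, from which calcitonin and CGRP are made by alternative splicing, gave different values by probe set. Its brightest probe set over the 12 arrays measured 124.3 ± 3.7 in exposed and 124.5 ± 5.9 in control animals (SD). The log2 change of that probe set was 0.00 (interval -0.07 to 0.07). Another one, close to it in intensity, measured 128 ± 7.49 in exposed and 110 ± 9.32 in control animals (log2 change 0.22 ± 0.06, adjusted p = 0.0989 in limma). In that probe set the groups did not overlap. The third Calca probe set was at the floor on all 12 arrays.

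Nmb, the precursor of neuromedin B, had the widest spread of the 35 genes, with 1 control animal far above the others. It measured 180.0, 180.1, 160.8, 160.3, 158.4 and 193.4 in exposed animals 1 to 6, against 172.1, 158.9, 167.3, 327.0, 158.7 and 150.7 in control animals 1 to 6. Control animal 4, at 327.0, was also highest of all 12 animals for Trh at 251.7 and for Cartpt at 1270, and it is the animal with the high olfactory bulb and neuroblast markers. Their part in these values was not tested. Without control animal 4 the log2 change of Nmb was 0.09, against -0.08 with it, and that of Trh was 0.00, against -0.13 with it. Neither gene passed in either fit.

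**Figure D3:**
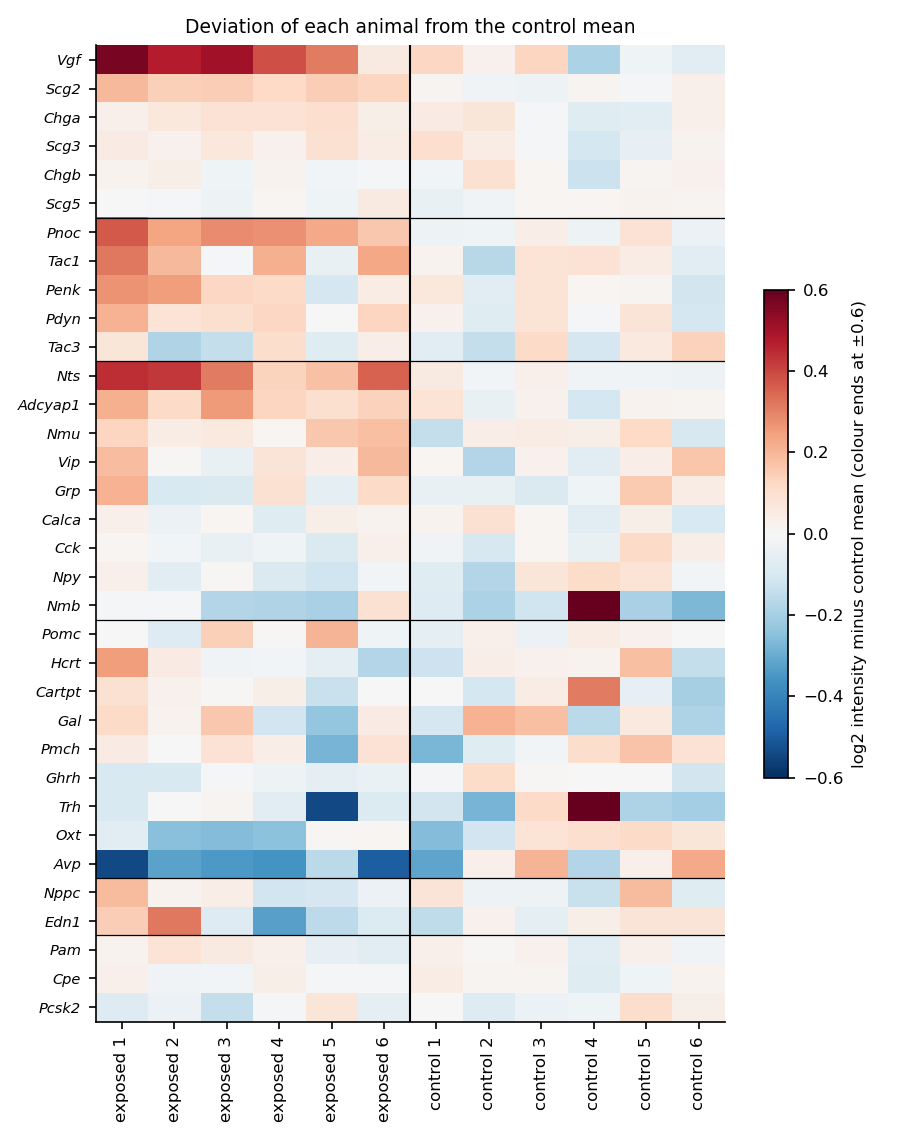
Log2 intensity of 34 genes (rows, ordered by role) in each animal (columns, exposed left of control) minus the control mean of that gene, in colour from -0.6 to 0.6. Scg2, Pnoc, Nts and Adcyap1 are red across the exposed animals, Avp is blue across them, and Nmb and Trh stand out in control animal 4. Vgf is red in exposed animals 1 to 5 and close to the control mean in exposed animal 6 (3958, against a mean of 3829).

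Of 10 hypothalamic precursors, 0 rose and 0 fell in limma at the adjusted threshold, and 1 had an unadjusted p under 0.05. That gene was Avp, the precursor of vasopressin. It measured 954.2, 1114, 1096, 1085, 1245 and 987.8 in exposed animals 1 to 6, against 1116, 1419, 1602, 1232, 1420 and 1630 in control animals 1 to 6. Exposed animals other than animal 5 lay below every control animal, and control animal 1 was the lowest of its group. The log2 change of Avp was -0.37 ± 0.10 (95% interval -0.59 to -0.15, unadjusted p = 0.00351, adjusted p = 0.0899 in limma), so it missed the threshold, though no other of the 35 genes had a larger change below 0. It passed in 3 of 29 alternative settings, namely without control animal 1 (adjusted p = 0.0334), without the dimmest 40% of probe sets (0.0266) and with array weights (0.0496). Without control animal 4 and exposed animals 3 and 5 its log2 change was -0.46 (adjusted p = 0.116).

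Oxt, the precursor of oxytocin, a peptide made beside vasopressin in the same hypothalamic nuclei, overlapped between the groups. It measured 672.2, 592.1, 588.2, 594.1, 708.2 and 709.5 in exposed animals 1 to 6, against 587.7, 651.4, 745.2, 756.5, 763.9 and 740.7 in control animals 1 to 6. Oxt had a log2 change of -0.13 ± 0.08 (adjusted p = 0.565). The summed intensity of the 11 hypothalamus markers ran from 12851 to 14503 in exposed and from 13437 to 14255 in control animals. Most of that sum came from Nnat (mean 9197 in exposed and 9383 in control animals) and Resp18 (4196 and 4064). Of the 11 markers, 4 were at the floor on all 12 arrays, so the list cannot show how much hypothalamus each sample held. With the mean log2 level of the 11 markers as a covariate the log2 change of Avp was -0.36 (adjusted p = 0.104 in limma). The receptor genes Avpr1a, Avpr2 and Oxtr were at the floor on all 12 arrays.

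The lateral hypothalamic peptides gave means that were nearly equal between the groups. Hcrt, the precursor of the orexins, averaged 272 ± 27.4 in exposed and 271 ± 22.6 in control animals (SD, n = 6 each), with a 95% interval of the log2 change from -0.16 to 0.17. Pmch, the precursor of melanin-concentrating hormone, averaged 2340 ± 210 in exposed and 2349 ± 251 in control animals, with an interval from -0.19 to 0.18. Gal, the precursor of galanin, had an interval from -0.20 to 0.20. Trh, the precursor of thyrotropin-releasing hormone, had a wide interval from -0.48 to 0.23. Pomc, the precursor of ACTH, melanocortins and beta-endorphin, and Ghrh, the precursor of growth hormone-releasing hormone, had low intensities between 61.1 and 90.9 over all 12 animals and log2 changes of 0.04 and -0.05 (adjusted p = 0.878 and 0.515). Gnrh1, the precursor of gonadotropin-releasing hormone, was at the floor on all 12 arrays in both of its probe sets, so no change could be given.

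The enzymes that process the precursors did not pass. Cpe, which codes for carboxypeptidase E, averaged 19590 ± 315 in exposed and 19580 ± 574 in control animals (SD, n = 6 each), with a 95% interval of the log2 change from -0.05 to 0.05. Pcsk2, which codes for prohormone convertase 2, had an interval from -0.12 to 0.04. Pam had an interval from -0.05 to 0.07 at its brightest probe set, and its other 2 probe sets were at or near the floor. The peptides known from blood vessels also gave no call, with log2 changes of 0.00 for Nppc, the precursor of C-type natriuretic peptide (interval -0.14 to 0.14), and -0.03 for Edn1, the precursor of endothelin 1 (interval -0.24 to 0.18).

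The genes differed in how much animals of the same group varied. The within-group SD on the log2 scale had a median of 0.088 over the 35 genes, against 0.085 over all genes above the floor. It was highest for Nmb (0.31), Trh (0.29), Avp (0.18), Edn1 (0.17) and Gal (0.16), and lowest above the floor for Scg2 (0.025), Scg5 (0.029) and Cpe (0.034). Exposed animal 5 had the lowest value of its group in 11 of 34 genes, among them Penk, Tac1, Pdyn, Pmch, Trh and Gal, and exposed animal 1 had the highest in 12 of 34, among them Vgf, Scg2, Pnoc and Nts.

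Peptide genes of neighbouring or shared cell groups were compared across animals as 4 pairs, using deviations from the group mean over 12 animals and a two-sided permutation test with 100000 resamples. For Penk and Tac1 Pearson's r was 0.69 (p = 0.0124, 0.0496 after Benjamini-Hochberg over the 4 pairs) and Spearman's rho was 0.53 (p = 0.0798, adjusted 0.319). Without exposed animals 1 and 5, the farthest from the median of Penk, r was 0.40, so the relation rested in part on those animals. Within numbers 1 to 3 and 4 to 6, with deviations from the group means of each set, r was 0.97 and 0.93. Those sets still hold exposed animals 1 and 5, so these values do not show the relation without them. For Oxt and Avp r was 0.35 (permutation p = 0.268, adjusted 0.416) and rho 0.24 (p = 0.441, adjusted 0.882), and r was -0.02 without control animal 1 and exposed animal 3. For Pmch and Hcrt r was 0.32 (permutation p = 0.312, adjusted 0.416) and rho 0.11 (p = 0.734, adjusted 0.921), and r was 0.01 without exposed animal 5 and control animal 1. For Scg2 and Vgf r was 0.18 (permutation p = 0.589, also after adjustment) and rho 0.03 (p = 0.921), and r was -0.04 without exposed animal 1 and control animal 6. Taken the same way within numbers 1 to 3 and 4 to 6, r was 0.52 and -0.01 for Oxt and Avp. It was 0.45 and 0.03 for Pmch and Hcrt, and 0.61 and -0.14 for Scg2 and Vgf. Both genes of a pair were read on the same array from the same dissection.

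**Figure D4:**
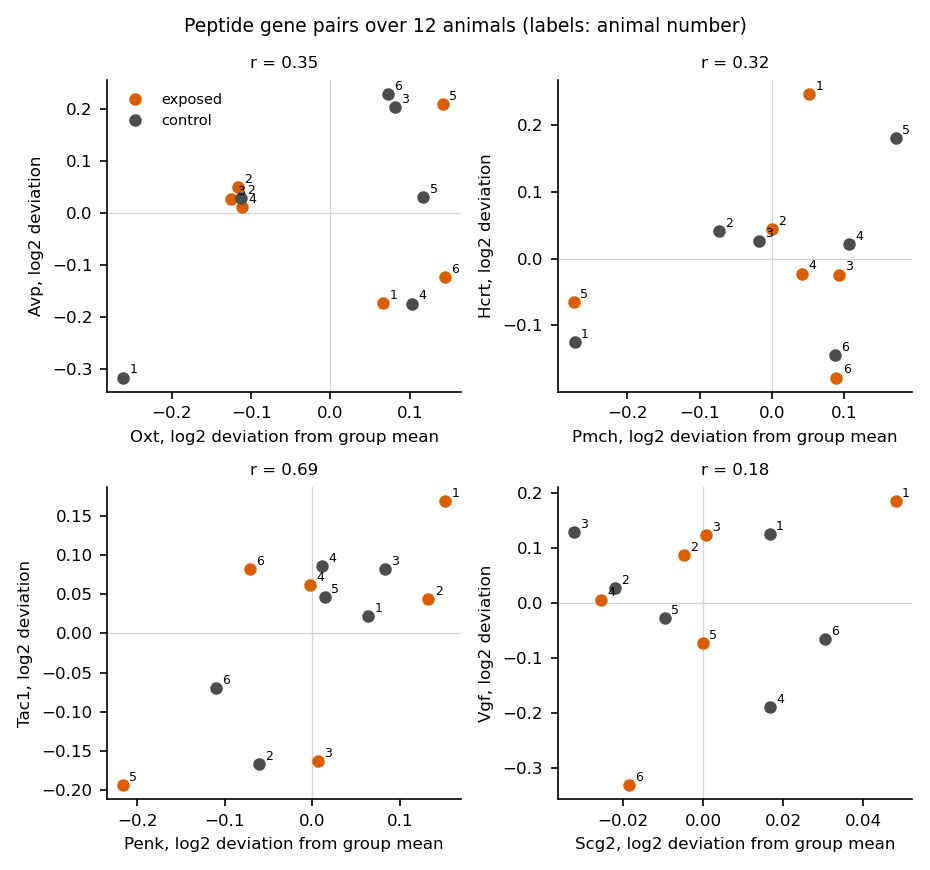
Log2 deviation from the group mean of 1 gene against another in 12 animals, exposed in orange and control in grey, labelled with the animal number. Penk and Tac1 deviate together (r = 0.69), with exposed animals 1 and 5 at the ends, and the other 3 pairs show r from 0.18 to 0.35.

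Of 42 measured genes of peptide receptors and their accessory proteins, 2 rose and 0 fell. Over all 14217 genes, 2.62% passed as higher and 0.844% as lower in limma. Vipr1 codes for a receptor of vasoactive intestinal peptide and PACAP. It measured 685.5, 674.7, 667.1, 687.4, 574.3 and 695.2 in exposed animals 1 to 6, against 460.4, 478.0, 488.0, 418.6, 439.2 and 515.7 in control animals 1 to 6 (log2 change 0.51 ± 0.06, 1.42-fold, adjusted p = 0.00101 in limma). Hcrtr2 codes for a receptor of the orexins. It measured 134.5, 149.5, 138.5, 134.4, 119.2 and 130.4 in exposed animals, against 100.3, 91.4, 93.6, 106.3, 96.1 and 101.4 in control animals (log2 change 0.45 ± 0.05, 1.37-fold, adjusted p = 0.00107). Neither receptor gene overlapped between the groups. In 2.5% of all genes every exposed animal lay above every control animal. Both changes were larger than any among the 35 precursor and granule genes. The 2 receptor genes are named because they passed, and alternative settings are given only for the 35 genes. The median log2 change of the 42 genes was 0.00, and 7 of them were at the floor on all arrays.

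Of 23 further neuropeptide precursors, 0 rose and 0 fell, and 0 had an unadjusted p under 0.05 in limma. The smallest p among them was that of Galp, the precursor of galanin-like peptide (log2 change 0.03, adjusted p = 0.529), which was at the floor on 9 of 12 arrays. Over all 14217 genes, 2.62% passed as higher and 0.844% as lower. Of 28 further processing and degrading enzymes, 1 rose and 0 fell. The riser was Ece1, which codes for endothelin-converting enzyme 1. It measured 772.4, 835.6, 812.3, 731.9, 796.1 and 718.5 in exposed animals 1 to 6, against 643.7, 617.4, 641.6, 676.9, 683.9 and 699.7 in control animals 1 to 6 (1.18-fold, adjusted p = 0.016), and the groups did not overlap. Of 31 further granule and exocytosis genes, 0 rose and 1 fell, Rab3d, which codes for a small GTPase of secretory granules. It measured 328.5, 301.4, 283.5, 295.6, 327.4 and 299.5 in exposed animals, against 357.9, 356.4, 407.9, 365.4, 437.1 and 355.2 in control animals, 1.24-fold lower in exposed animals (adjusted p = 0.0229), again with no overlap. Over all genes, every exposed animal lay above every control animal in 2.5% and below every control animal in 0.879%. The medians of these 3 lists were 0.00, -0.02 and -0.01 on the log2 scale.

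**Figure D5:**
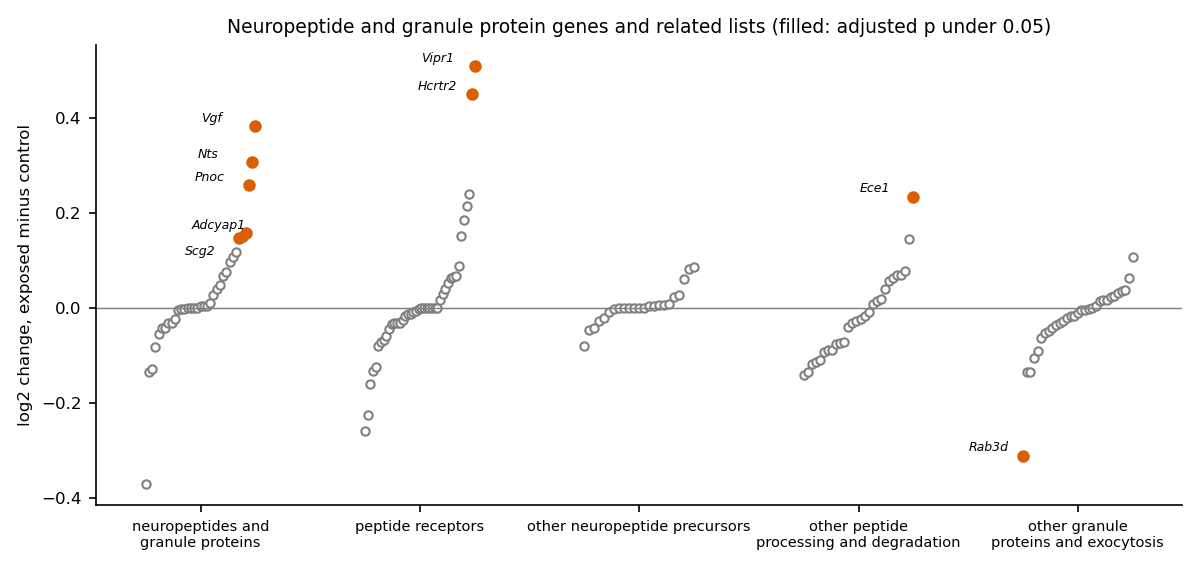
Log2 change (exposed minus control, y axis) of every measured gene of the neuropeptide and granule protein list and of 4 related lists, sorted within each list; filled points passed at adjusted p under 0.05. The highest points are Vipr1 (0.51) and Hcrtr2 (0.45) among the receptors, and Rab3d (-0.31) is the only filled point below 0.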

How the data were processed

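Forebrain RNA of 12 rats was measured on 12 Affymetrix arrays, 1 per animal, and the groups were taken from the sample titles. The authors deposited linear intensities, 1 for each probe set of an array (12.56 to 34828). Trizol extraction and an RNeasy cleanup are named in the labels' protocols. Background correction, summarisation and normalization are not given in the sources used here. Array medians were nearly equal, so the deposited intensities were compared as they are.

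Intensities under the 20th percentile of all values (53.9) were raised to it and transformed to log2. limma 3.58.1 in R 4.3.3 was fitted to 31042 probe sets with the group as the only term and eBayes with a mean-variance trend, leaving out 57 array control probe sets. The fit was checked on simulated arrays. That check required recovery only of a change larger than any in the list, so it does not show that smaller changes are found. Symbols came from the platform annotation, in which 20826 probe sets had 1 symbol, 436 had several and 9780 had none. The number of arrays limits precision, and p-values set the difference between the groups against the spread between these animals only.

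The genes and lists were chosen with earlier results of these data known, so lists have counts and medians but no test. The genes named are all measured list genes, Fos as a check of the exposure, the marker genes used to describe the tissue, and of each related list the genes that passed or else the one with the smallest p. The other receptors named, Rbfox3, and the neuron and striatum markers named for an unadjusted p were chosen after their values were seen. The residuals of animals with the same number correlated between -0.077 and 0.16, so the numbers were not taken as pairs. The alternatives were other normalizations, floors, filters and variance models, array weights, a replicate block, covariates, number sets and leaving out animals.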

Additional observations from a re-analysis of the deposited data

Results flagged for a closer look

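In 4 of 68 groups of 6 animals, 1 animal lay far from the other 5 of its group by Dixon's criterion for the gap to the nearest animal. Chance alone gives about 1 such group in 20. Trh in exposed animal 5 measured 109.4, and the next exposed animal 149.2. Pmch in exposed animal 5 measured 1928, and the next exposed animal 2331. Scg2 in exposed animal 1 measured 5521, and the next exposed animal 5342, and without exposed animal 1 the log2 change of Scg2 was 0.14 (adjusted p = 0.000642 in limma). Nmb in control animal 4 measured 327.0, and the next control animal 172.1.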

How the results depend on the processing

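The direction of the 5 risers was the same in all 29 alternatives. Scg2 passed in 27 of them, Pnoc and Nts in 26 each, Vgf in 10 and Adcyap1 in 9. The number of the 35 genes that rose was 3 with robust eBayes, 3 without control animal 4 and exposed animals 3 and 5, 2 with the RNA quality covariate, and 0 within numbers 1 to 3 and 0 within numbers 4 to 6, where each group holds 3 animals. Leaving out 1 animal at a time gave 3 to 4 risers and 0 to 1 that fell, and Avp was the 1 that fell without control animal 1. Avp was also the 1 that fell without the dimmest probe sets and with array weights. The median log2 change of the 35 genes was 0.06 within numbers 1 to 3. Same-numbered animals were not shown to be pairs, and 2 of 6 correlated best with their own number. With the animal number as a replicate block 2 of the 35 genes rose (Scg2 and Nts), and over all probe sets 359 rose and 76 fell, against 610 and 186 without the block. In the block fit Pnoc (adjusted p = 0.0522 in limma), Adcyap1 (0.0517) and Vgf (0.0506) did not pass, and with a term for the number sets in its place Vgf did (0.00544). Pnoc also did not pass within numbers 1 to 3 (0.164) or 4 to 6 (0.373). Probe sets that rose numbered 66 within numbers 1 to 3 and 31 within numbers 4 to 6. Those that fell numbered 313 with array weights, 9 and 2 within these sets of numbers, 72 with the RNA quality covariate, 100 with the striatum marker covariate, 82 without the 3 animals together, and 103 to 182 with 1 animal left out. The causes of these shifts were not tested. Genes at or near the floor, such as Gnrh1, allow no statement on change.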
